A study of Mus musculus with 12 samples.

Results

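Cone photoreceptor genes are described here by 10 rows of the count table, out of 50559 genes listed. They were chosen by name and by no measured value: the S opsin Opn1sw, the M opsin Opn1mw, the cone arrestin Arr3, the cone transducin subunits Gnat2, Gnb3 and Gngt2, the cone phosphodiesterase subunits Pde6c and Pde6h, and the channel subunits Cnga3 and Cngb3. RNA-seq was performed on 12 retinal libraries from wild-type C57BL/6J mice of mixed sex, collected on postnatal day 28, with 3 libraries in each of 4 groups. IgG pups received a single subcutaneous injection of 30 µg rat IgG on day 1. APB5 pups received the same amount of APB5, a rat monoclonal antibody that blocks PDGFRβ, the receptor that growing capillaries use to recruit pericytes. IgG+Mino and APB5+Mino pups also received minocycline, a tetracycline with effects on microglia, at 45 mg/kg by daily intraperitoneal injection from day 5 to day 27. APB5 reached the whole body through the circulation and was not directed at the retina or at any cell type in it. The libraries of a group came from 3 mice, and whether a library held 1 or both retinas of a mouse is not given in the sources used here.

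In a cone, light activates the opsin, the opsin activates transducin, and transducin releases the catalytic phosphodiesterase from its inhibitory subunit. The fall in cyclic GMP then closes the cyclic nucleotide-gated channel, and arrestin binds the activated opsin to end the response. Rods run the same steps with their own set of proteins and are by far the more abundant photoreceptor of the mouse retina. Many mouse cones make both opsins, in a gradient with more S opsin ventrally and more M opsin dorsally.

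The 12 libraries held 52740545 to 59411044 counts each. All 10 cone genes passed the filter on low counts in every comparison. The third APB5 library stood apart from all others: its score on principal component 1 (38.4% of variance) was 126.4, and the scores of the other 11 were -53.9 to 25.7. The third IgG library, at 23.1 on that component, was set apart only because it was high for several cone genes. Each result that rests on these libraries is also given without them. Xist, which marks the inactive X chromosome of females, was at 815 to 2662 CPM in the 3 IgG libraries, the third APB5 library and the third APB5+Mino library, and under 1 CPM in the other 7. Sex and minocycline therefore cannot be told apart between IgG+Mino and IgG, and this touches Opn1mw and Arr3, which are X-linked. Sex also differed in part between APB5 and IgG, with Xist high in 1 of 3 APB5 libraries and in 3 of 3 IgG libraries, and between APB5+Mino and IgG+Mino, with 1 of 3 and 0 of 3. Pdgfrb itself was at 12.8 to 20.1 CPM in 11 libraries and at 38.0 CPM in the third APB5 library; an antibody to the protein need not change its transcript, so this is no check of the labels. In whole-retina RNA, fewer cones and less RNA per cone cannot be told apart.

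The promoters of both opsins are shown first because their transcripts are compared below, and that of Gnat2 because it held the only match to the core motif of CRX, a photoreceptor transcription factor. RefSeq windows on GRCm38.p6 were at hand for 6 of the 10 genes (7 windows, as Cnga3 has a pair of start sites). Each sequence gives the 250 bases before the start site in the direction of transcription, and capitals mark matches to 3 motifs on either strand. The CRX core was searched as TAATCC. The nuclear receptor half-site was searched as AGGTCA. The TATA box was searched as TATAAA.
Opn1sw, chr6:29380514-29380763, minus strand: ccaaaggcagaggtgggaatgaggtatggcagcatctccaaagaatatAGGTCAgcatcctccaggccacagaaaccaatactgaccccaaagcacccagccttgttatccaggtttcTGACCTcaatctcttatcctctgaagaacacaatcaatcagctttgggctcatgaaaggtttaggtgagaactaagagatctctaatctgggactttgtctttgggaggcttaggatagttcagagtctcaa
Opn1mw, chrX:74127216-74127465, plus strand: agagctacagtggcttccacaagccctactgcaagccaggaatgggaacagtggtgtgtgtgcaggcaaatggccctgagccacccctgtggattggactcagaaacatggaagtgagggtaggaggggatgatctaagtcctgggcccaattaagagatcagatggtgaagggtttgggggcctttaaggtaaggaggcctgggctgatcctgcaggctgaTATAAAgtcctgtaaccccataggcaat
Gnat2, chr3:108092816-108093065, plus strand: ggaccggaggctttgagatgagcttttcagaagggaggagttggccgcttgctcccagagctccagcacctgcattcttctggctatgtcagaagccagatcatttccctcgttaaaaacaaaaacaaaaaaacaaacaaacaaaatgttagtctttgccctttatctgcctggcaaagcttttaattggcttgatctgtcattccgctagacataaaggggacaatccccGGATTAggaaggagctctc
Opn1sw held AGGTCA at 2 places, starting 202 and 132 bases before the start. Opn1mw held TATAAA at 28 bases, and Gnat2 held TAATCC on the reverse strand at 19 bases before the start. No 2 matches overlapped. TAATCC was in 1 of the 7 windows and in 6.25% of all 32851 windows of this length, AGGTCA in 1 of 7 and 14% of all, and TATAAA in 2 of 7 and 12.4% of all. These are matches of letters, and no binding was measured.

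Levels are given as CPM, the count of a gene relative to the total of its library, scaled between libraries by the TMM method. Opn1sw, the pigment of short-wavelength cones (GRCm39 chromosome 6, 29376670 to 29388467), was at 309, 336 and 709.7 CPM in IgG, 479.6, 458 and 467 in IgG+Mino, 419, 348 and 114 in APB5, and 465, 406 and 416 in APB5+Mino, in the order of the replicate numbers. Opn1mw, the pigment of middle-wavelength cones (chromosome X, 73171070 to 73194366), was at 116, 135 and 206 CPM in IgG, 171, 149 and 137 in IgG+Mino, 153, 125 and 37.9 in APB5, and 141, 136 and 127 in APB5+Mino. For both opsins the highest value was the third IgG library and the lowest the third APB5 library, and no pair of groups compared here was free of overlap. Arr3, which binds the activated cone opsins (chromosome X, 99649101 to 99662099), was at 385, 375 and 531 CPM in IgG, 388, 381 and 262 in IgG+Mino, 325, 351 and 106 in APB5, and 267, 337 and 344 in APB5+Mino. Every APB5 library was below every IgG library for Arr3.

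Among the transducin subunits, Gnat2, the alpha subunit (chromosome 3, 107999932 to 108008748), was at 151, 154 and 265 CPM in IgG, 187, 151 and 157 in IgG+Mino, 166, 151 and 72.4 in APB5, and 142, 128 and 124 in APB5+Mino. Gnb3, the beta subunit, which ON bipolar cells also use (chromosome 6, 124811202 to 124817238), was at 455, 426 and 513 CPM in IgG, 509, 374 and 372 in IgG+Mino, 533, 586 and 955 in APB5, and 358, 379 and 395 in APB5+Mino. Gnb3 ran against the other members: its 3 APB5 values were the highest of the 12. Gngt2, the gamma subunit (chromosome 11, 95725953 to 95736565), was at 88.7, 76.6 and 123 CPM in IgG, 78.6, 61.9 and 61.3 in IgG+Mino, 79.7, 73.6 and 60.3 in APB5, and 52.9, 37.7 and 43.2 in APB5+Mino. All 3 APB5+Mino libraries were below all 9 others for Gngt2.

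Pde6c, the catalytic subunit of the cone phosphodiesterase (chromosome 19, 38121229 to 38172406), was at 117, 128 and 139 CPM in IgG, 117, 118 and 115 in IgG+Mino, 123, 129 and 100.1 in APB5, and 87.2, 101 and 98.9 in APB5+Mino. Pde6h, its inhibitory subunit (chromosome 6, 136900830 to 136945863), was at 69.4, 70.1 and 150.3 CPM in IgG, 76.2, 75.4 and 67.3 in IgG+Mino, 90.6, 72.5 and 41.9 in APB5, and 54.2, 43.4 and 42.1 in APB5+Mino. The APB5+Mino values of both lay below those of IgG+Mino without overlap. The channel subunits were the least abundant members. Cnga3, the alpha subunit (chromosome 1, 37253515 to 37304128), was at 8.76, 9.40 and 19.1 CPM in IgG, 11.98, 15.05 and 13.8 in IgG+Mino, 13.4, 12.3 and 5.69 in APB5, and 12.6, 9.94 and 10.1 in APB5+Mino. Cngb3, the beta subunit (chromosome 4, 19280850 to 19510623), was at 18.8, 19.1 and 21.6 CPM in IgG, 17.9, 25.5 and 20.9 in IgG+Mino, 19.97, 19.4 and 12.2 in APB5, and 15.7, 16.5 and 15.6 in APB5+Mino. Both were lowest in the third APB5 library, and Cnga3 was highest in the third IgG library.

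**Figure D1:**
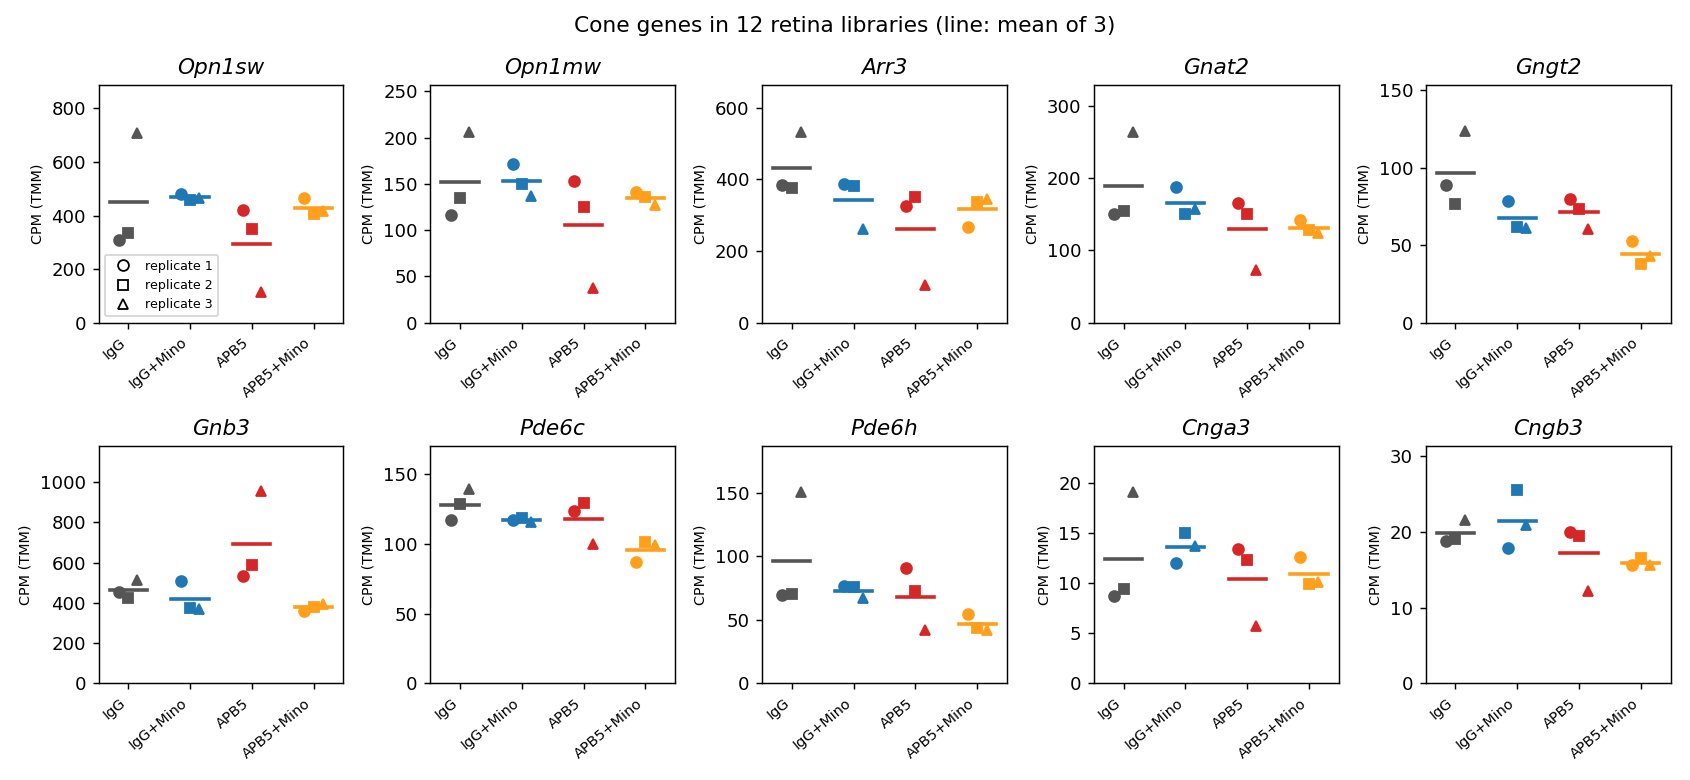
CPM (vertical axes, from 0, scaled per gene) of the 10 cone genes in the 12 libraries, with groups on the horizontal axes, a symbol for each replicate number and a line at the mean of 3. The third APB5 library is the lowest of its group for 9 genes and the highest for Gnb3 at 955 CPM, and the APB5+Mino values of Gngt2, at 37.7 to 52.9 CPM, lie below all others.

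Per kilobase of the Ensembl canonical transcript, the IgG mean was 187 ± 93.0 CPM for Opn1sw and 124 ± 38.5 for Opn1mw (SD, n = 3), 2.36 ± 1.10 for Cnga3 and 4.21 ± 0.321 for Cngb3. The channel subunits were also the lowest members per kilobase of coding sequence, at 6.18 ± 2.89 and 9.50 ± 0.724 CPM (SD, n = 3), and their ranges did not overlap those of any other member. The order of the other members is not given, because it turned with the length used: Gngt2 was at 47.8 CPM per kilobase of transcript and 458 per kilobase of coding sequence. Exons of 4 members overlap a gene on the opposite strand in the annotation, and whether the counting used strand is not given in the sources used here: Opn1sw overlaps Calu by 397 bases, Gngt2 overlaps Abi3 by 871, Pde6h overlaps Arhgdib by 136 and Cnga3 overlaps the noncoding RNA Gm69908 by 792.

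The comparison of APB5 with IgG asks what the antibody did on its own. No cone gene passed the test (edgeR's quasi-likelihood test, Benjamini-Hochberg adjusted over all 20350 genes tested), whether or not a fold change was required; 0% of genes passed at either rule, and 7.23% of genes had an unadjusted p under 0.05, Gnb3 being the 1 cone gene among them. The log2 fold change was below 0 for 9 of the 10, with a median of -0.46, while the median over all genes tested was -0.0024 and 50.4% of genes were below 0. Arr3 was the farthest below, at -0.72 (SE 0.41, adjusted p = 0.689). Opn1sw was at -0.61 (SE 0.50, adjusted p = 0.751), Opn1mw at -0.53 (SE 0.47, adjusted p = 0.772) and Gnat2 at -0.54 (SE 0.34, adjusted p = 0.707). Gnb3 alone was above 0, at 0.59 (SE 0.25, adjusted p = 0.664). The groups did not overlap for 1 member in each direction, Arr3 lower and Gnb3 higher, against 7.89% and 7.79% of all genes. Without the third APB5 library alone, the median over the 10 was -0.18. Without both the third APB5 and the third IgG library, it was 0.096 and only Arr3 (-0.17) and Gngt2 (-0.12) were below 0. The third IgG library was picked by its high cone values, so leaving it out raises this difference by construction and tests nothing. With DESeq2, 0.533% of genes were called and still no cone gene. With Xist as a covariate over all 12 libraries the median was -0.86. Opn1sw was at -1.35 (adjusted p = 0.0861 by edgeR) and Opn1mw at -1.33 (adjusted p = 0.0626). Arr3 was at -1.27 (adjusted p = 0.0877) and Gnat2 at -1.03 (adjusted p = 0.0569). Gnb3 alone passed, at 0.86 (adjusted p = 0.0260), against 6.05% of genes higher and 0.923% lower. Only the third APB5 library had high Xist in its group, so within APB5 this fit cannot separate sex from that library.

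In the third APB5 library the cone genes had not moved alike. Relative to the mean of the other 2 APB5 libraries, Opn1mw was at 27.2%, Opn1sw at 29.7% and Arr3 at 31.2%. Cnga3 followed at 44.3%, Gnat2 at 45.6%, Pde6h at 51.4% and Cngb3 at 61.9%, while Gngt2 and Pde6c were at 78.7% and 79.3%. Gnb3 was at 170.5%. The opsins and arrestin, the most reduced, are the light-absorbing and quenching proteins, and the transducin gamma and phosphodiesterase catalytic subunits were the least reduced of the 9. This is 1 library, with no replicate check.

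For transducin, phosphodiesterase and channel subunits, the rod counterpart was at a lower percentage in that library than the cone gene, and for arrestin it was not. Gnat1, the rod transducin alpha subunit, was at 25.1% of the mean of the other 2 APB5 libraries, Cngb1, the rod channel beta subunit, at 25.2%, and Sag, the rod arrestin, at 42.3%. Of 8 cone and rod pairs, the ratio of cone to rod counts was higher in this library for 7. It was 2.73-fold higher for Pde6c over Pde6a and 2.46-fold for Cngb3 over Cngb1. The largest value, 5.21-fold for Gnb3 over Gnb1, came with Gnb3, which ON bipolar cells also use, at 170.5%. For the same 7 pairs the ratio exceeded the highest of the other 11 libraries. For Arr3 over Sag the ratio was 0.739 of that in the other 2 APB5 libraries and the lowest of all 12. Other cell types moved with this library: the summed level of 10 microglial markers was 394.7 CPM, against 51.0 and 56.4 in the other APB5 libraries, and that of 10 pigment epithelium and melanocyte markers was 993 CPM, against 139.6 and 153. The sum of 10 bipolar markers was 1275 CPM, between the 1219 and 1324 of the other APB5 libraries. The part of these cells in the cone values was not tested.

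**Figure D2:**
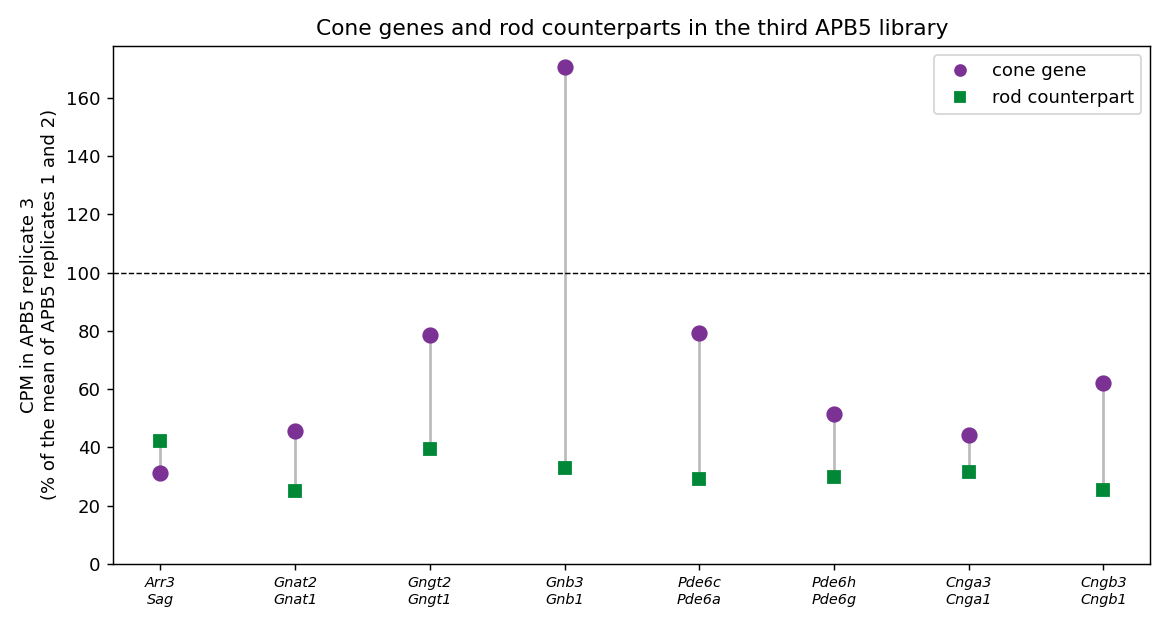
CPM in the third APB5 library as a percentage of the mean of the other 2 APB5 libraries (vertical axis), for 8 cone genes (circles) and their rod counterparts (squares), paired along the horizontal axis. The circle is above the square in 7 of the 8 pairs, and Gnb3 at 170.5% is the only gene above the dashed line at 100%.

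The comparison of APB5+Mino with APB5 asks what minocycline did in mice given the antibody. No cone gene passed the test at either rule, while 1.66% of 20281 genes were called at a 2-fold or larger change and 4.82% passed 0.05 after adjustment at any fold. At an unadjusted p under 0.05 there were 3 members, Gngt2, Gnb3 and Pde6c, against 35.9% of genes. The members divided: Opn1sw at 0.54 (SE 0.42, adjusted p = 0.379 by edgeR), Opn1mw at 0.35 (SE 0.44) and Arr3 at 0.27 (SE 0.41) were above 0 on the log2 scale, and Gnb3 at -0.89 (SE 0.24), Gngt2 at -0.69 (SE 0.16), Pde6h at -0.56 (SE 0.27) and Pde6c at -0.31 (SE 0.12) were below. The median over the 10 was -0.057, with 5 below 0, against -0.020 over all genes tested, of which 51.5% were below 0; without the third APB5 library the median over the 10 was -0.29. Gngt2 (adjusted p = 0.0517) and Gnb3 (adjusted p = 0.0621) came closest to the threshold. They were the 2 members whose APB5+Mino libraries were all below the APB5 libraries, against 22.8% of all genes. With a single spread estimated over all 12 libraries, both passed (adjusted p = 0.0277 for Gngt2 and 0.0177 for Gnb3, with 12% of genes lower at any fold), and with DESeq2 too (12.4% lower).

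This comparison turned on the third APB5 library. Without it, 6 of the 10 cone genes fell in edgeR's test, against 13.4% of all genes. These were Pde6h at -0.81 (adjusted p = 0.0050), Gngt2 at -0.79 (adjusted p = 0.0053), Gnb3 at -0.57 (adjusted p = 0.0048), Pde6c at -0.41 (adjusted p = 0.0125), Cngb3 at -0.31 (adjusted p = 0.0373) and Gnat2 at -0.28 (adjusted p = 0.0476). Gnat2 had been at 0.0069 with that library. None of the 6 fell by 2-fold, and neither opsin, Arr3 nor Cnga3 was among them. Without the second APB5 library 1 member passed, Gnb3 (adjusted p = 0.0458), against 10.5% of genes lower. Microglial markers moved the same way, with summed levels of 16.8 to 19.5 CPM in APB5+Mino. With all 6 libraries, all 10 markers were lower than in APB5 without overlap, against 22.8% of all genes, and none was at 0. Cx3cr1, the microglial fractalkine receptor, passed at a 2-fold change, at -3.84 (SE 0.61, adjusted p = 0.0447). From the other lists so did Edn2, an endothelin that stressed photoreceptors make, at -3.56 (SE 0.49, adjusted p = 0.0430), the endothelial Cldn5 at -1.68 (SE 0.16, adjusted p = 0.0417) and the pericyte gene Rgs5 at -1.36 (SE 0.26, adjusted p = 0.0461). These 4 calls were lost with the replicate number as a block, which called 0% of genes (adjusted p = 0.0641 for each), and when the first APB5 library or any APB5+Mino library was left out (adjusted p of 0.105 to 0.214). Of the genes on the opposite strand, Calu, which overlaps Opn1sw, was at 83.5 to 94.8 CPM in APB5+Mino and 127 to 179 in APB5, with the highest value in the third APB5 library, where Opn1sw was at 114. Calu was at -0.74 (SE 0.15, adjusted p = 0.0476, and 0.0676 with the block). Arhgdib, which overlaps Pde6h, was at 1.94 to 2.09 CPM in APB5+Mino and 4.98 to 16.0 in APB5, and Abi3, which overlaps Gngt2, at 3.69 to 4.54 and 3.87 to 8.80. Their part in the values of Opn1sw, of its ratio to Opn1mw, of Pde6h and of Gngt2 was not tested.

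**Figure D3:**
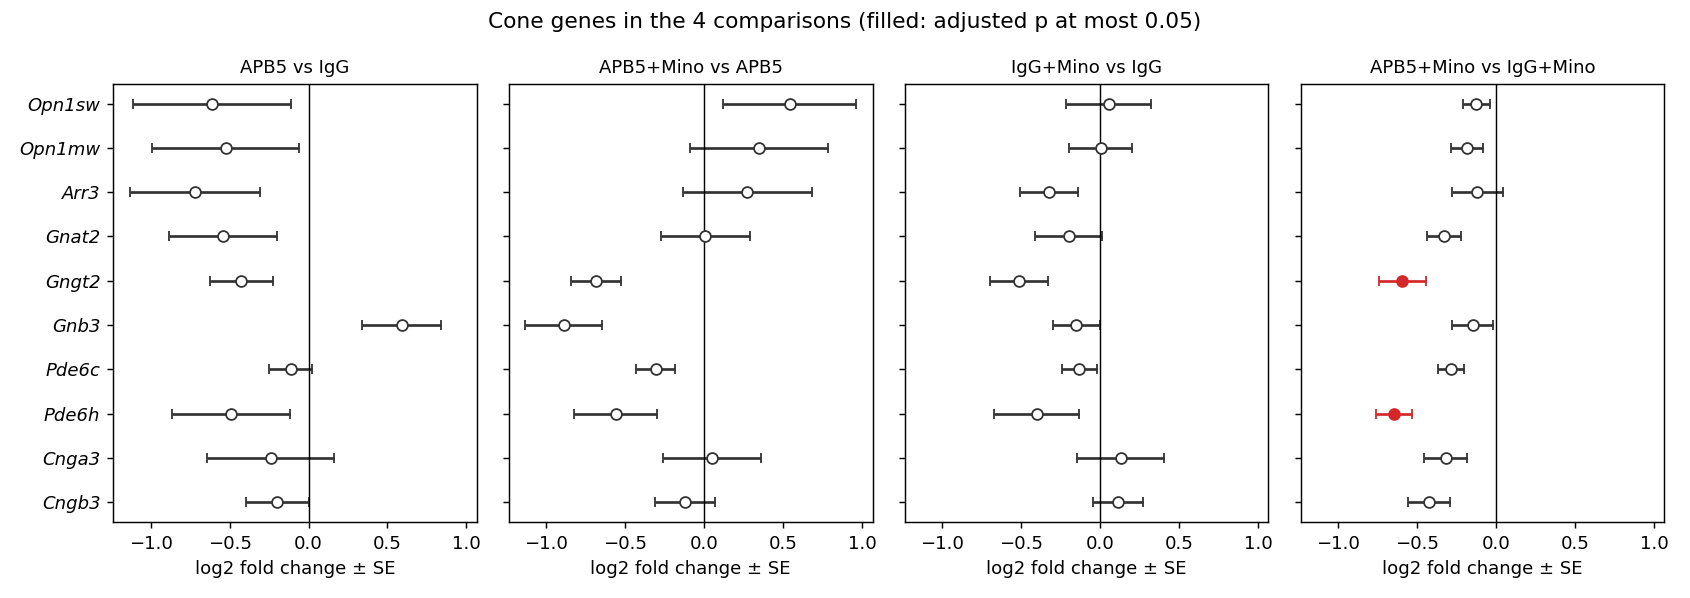
Log2 fold change (horizontal axes) with its standard error for the 10 cone genes (vertical axis) in the 4 comparisons, from edgeR fits of 6 libraries each. Filled points, Gngt2 at -0.59 and Pde6h at -0.65 in APB5+Mino against IgG+Mino, mark those past 0.05 after adjustment.

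The comparison of APB5+Mino with IgG+Mino asks what the antibody did in mice that all received minocycline; neither outlying library enters it. Pde6h fell by 0.65 on the log2 scale (SE 0.12, adjusted p = 0.0196 by edgeR) and Gngt2 fell by 0.59 (SE 0.15, adjusted p = 0.0444), 1.57-fold and 1.51-fold lower. These 2 of 10 members stand against 3.28% of 20049 genes that fell at any fold, and no member was among the 4.8% that rose; at a 2-fold or larger change no member and 1.23% of genes were called. All 10 members were below 0, with a median of -0.30, against -0.0092 over all genes tested, of which 51.1% were below 0. With Xist as a covariate over all 12 libraries, Opn1sw (0.24), Opn1mw (0.20) and Arr3 (0.17) were above 0. The other members stayed below 0 in that fit, and none passed. The groups did not overlap for 5, Gnat2, Gngt2, Pde6c, Pde6h and Cngb3, against 17.6% of genes. Nearest to 0 were Arr3 at -0.12 (SE 0.16), Opn1sw at -0.12 (SE 0.084), Gnb3 at -0.15 and Opn1mw at -0.18 (SE 0.10), with adjusted p-values of 0.661, 0.351, 0.482 and 0.267. With DESeq2, 5 members passed (Gnat2, Gngt2, Pde6c, Pde6h and Cngb3), against 9.25% of genes. No member passed when the third IgG+Mino, the second APB5+Mino or the third APB5+Mino library was left out, or when the spread was estimated over all 12 libraries (adjusted p = 0.299 for Pde6h and 0.168 for Gngt2, with 0% of genes passing); without the first IgG+Mino library 4 passed, against 7.18% of genes lower. Over the 6 omissions of 1 library Pde6h ranged from -0.77 to -0.58 and Gngt2 from -0.73 to -0.46.

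The calls of other genes in this comparison had the same limit: of the 15 that are named here and below, none passed without the third IgG+Mino, the second APB5+Mino or the third APB5+Mino library (adjusted p of 0.0674 to 0.203), with all 12 libraries or with Xist as a covariate. With the 6 libraries, the rod counterparts were below 0. All 9 read were below 0, with a median of -0.28, and 4 fell, against 3.28% of all genes: Gngt1, the rod transducin gamma subunit, by 0.52 (SE 0.12, adjusted p = 0.0399), Gnat1 by 0.47 (SE 0.067, adjusted p = 0.0125), Pde6g, the rod inhibitory subunit, by 0.44 (SE 0.097, adjusted p = 0.0324), and Gnb1 by 0.28 (SE 0.072, adjusted p = 0.0463). Gngt1 and Pde6g are the rod forms of Gngt2 and Pde6h, the members that fell. Microglial markers were also lower, with sums of 16.8 to 19.5 CPM in APB5+Mino and 29.2 to 32.9 in IgG+Mino, Cx3cr1 fell by 2.21 (SE 0.38, adjusted p = 0.0182), and Arhgdib fell by 1.08 (SE 0.16, adjusted p = 0.0125); it was at 3.95 to 4.89 CPM in IgG+Mino, against 67.3 to 76.2 for Pde6h. Abi3 was at 0.11 (SE 0.15, adjusted p = 0.683).

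As a description over the 8 cone and rod pairs, the median log2 ratio of cone to rod counts in a library was -4.39 to -4.14 in IgG, -4.71 to -4.51 in IgG+Mino, -4.41 to -4.04 in APB5 and -4.81 to -4.75 in APB5+Mino. Both minocycline groups lay below their controls without overlap in this median, and APB5 and IgG overlapped. Not every pair went this way. The mean of Arr3 over Sag was -4.29 in APB5 and -3.76 in APB5+Mino, while the other pairs were lower in APB5+Mino. From IgG to IgG+Mino, Cnga3 over Cnga1 went from -6.27 to -5.82 and Cngb3 over Cngb1 from -5.65 to -5.62, and the other pairs were lower. The mean difference of the median was -0.52 for APB5+Mino against APB5, and -0.42 without the third APB5 library. It was -0.28 for IgG+Mino against IgG, where sex differs too, -0.19 for APB5+Mino against IgG+Mino and 0.051 for APB5 against IgG.

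The comparison of IgG+Mino with IgG asks what minocycline did alone, and here sex differs fully between the groups. No cone gene passed with edgeR or DESeq2, against 0.0298% of 20143 genes called by edgeR. The median over the 10 was -0.14, with 6 below 0, and over all genes -0.010, with 51.4% below 0. Gngt2 was at -0.52 (SE 0.18, adjusted p = 0.585), the only member with an unadjusted p under 0.05, against 8.37% of genes. Opn1mw, which is X-linked, was at 0.0038 (SE 0.20) and Arr3 at -0.33 (SE 0.18). Without the third IgG library the median was 0.088.

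Whether minocycline acted differently with and without the antibody was tested as an interaction over all 12 libraries. No cone gene passed, against 0.0141% of 21228 genes. Gnb3, the only member with an unadjusted p under 0.05 (17.1% of genes), was at -0.73 (SE 0.30, adjusted p = 0.250): its log2 difference on minocycline was -0.15 in IgG mice and -0.89 in APB5 mice. With both outlying libraries left out, Pde6h (-0.86, adjusted p = 0.0305) and Cnga3 (-0.81, adjusted p = 0.0457) passed, against 2.09% of genes in the same direction, and Gnb3 was not among them. The third IgG library was picked by its high cone values, so this omission lowers the interaction by construction. Without the third APB5 library alone, Pde6h was at -0.42 and Cnga3 at -0.38, and neither passed.

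The proportion of S to M opsin overlapped between the groups of every comparison, in a design too small for its test to pass 0.05. The ratio of Opn1sw to Opn1mw counts was 2.66, 2.48 and 3.45 in IgG, 2.80, 3.07 and 3.40 in IgG+Mino, 2.73, 2.78 and 3.004 in APB5, and 3.30, 2.99 and 3.26 in APB5+Mino. Group means were 2.87 ± 0.514, 3.09 ± 0.303, 2.84 ± 0.144 and 3.19 ± 0.170 (SD, n = 3). The third APB5 library, with 7623 and 2537 counts, had the fewest of both opsins and a ratio of 3.004, inside the range of the other 11. In a two-sided exact permutation test of the log2 ratio, which with 3 against 3 cannot give a p below 0.1, p was 1 for APB5 against IgG, 0.2 for APB5+Mino against APB5, 0.5 for IgG+Mino against IgG and 0.7 for APB5+Mino against IgG+Mino. Adjusted over the 4 comparisons these were 1, 0.8, 0.933 and 0.933. The mean differences were 0.0011, 0.17, 0.12 and 0.048 on the log2 scale. Corrected for length, the mean ratio in IgG was 1.46 ± 0.262 (SD, n = 3) per kilobase of transcript and 2.97 ± 0.533 per kilobase of coding sequence, and in each of the 12 libraries it was above 1 with either length.

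**Figure D4:**
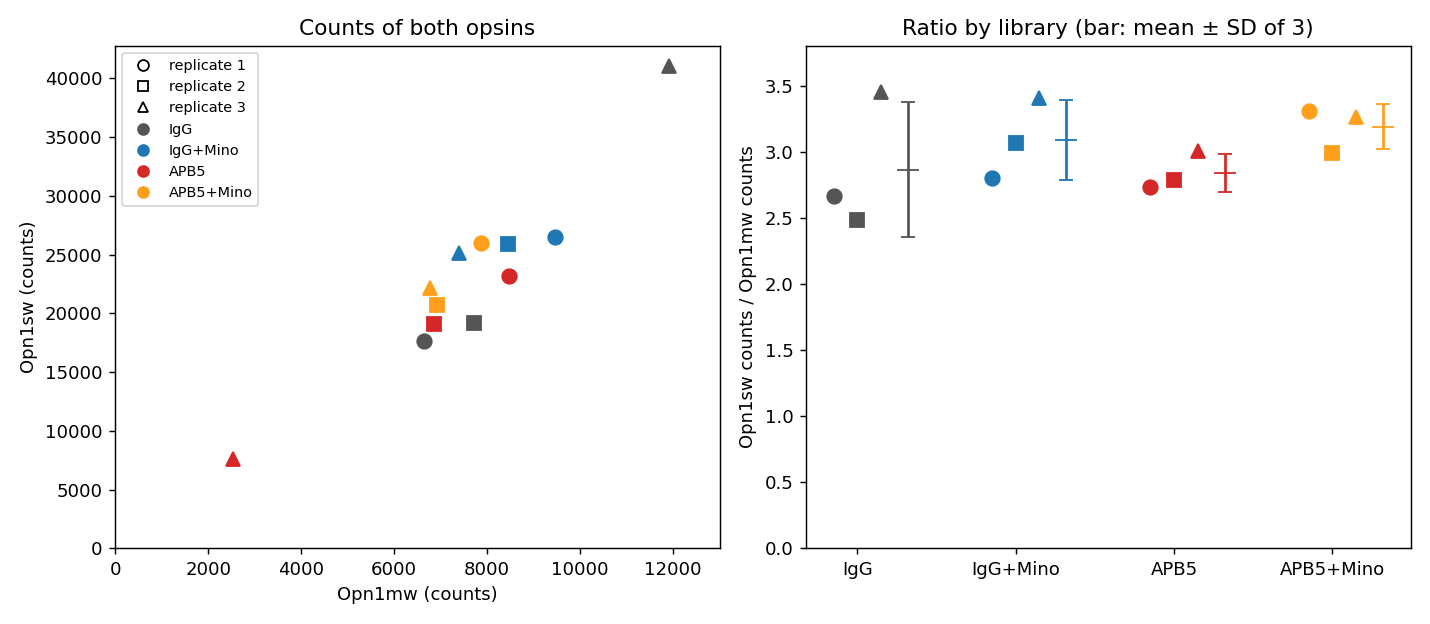
Left, counts of Opn1sw (vertical axis) against Opn1mw (horizontal axis) in the 12 libraries; right, their ratio by group, with the mean and SD of 3 as a bar. The third APB5 library is at the lower left, at 7623 and 2537 counts, and its ratio of 3.004 lies among those of the other libraries, which run from 2.48 to 3.45.

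Genes that set or maintain the cone state were read as a list of 14 regulators. No regulator passed in APB5 against IgG or in IgG+Mino against IgG, where 0% and 0.0298% of all genes passed. Crx, which both photoreceptor types need, was at 1155 to 1373 CPM in 11 libraries and 438 in the third APB5 library. Rxrg, which acts with the thyroid hormone receptor to repress S opsin, was at 7.81 CPM in that library, inside the 6.13 to 10.1 of the others. Thrb, that thyroid hormone receptor, was at 48.9 CPM in the third APB5 library and 48.7 in the third IgG library, the lowest and the highest libraries for both opsins, and at 82.3 to 123 in the other 10. In APB5+Mino against APB5, 12 of the 14 regulators were above 0, with a list median of 0.45, against -0.020 over all genes. None of these 12 passed, and 5 of the 14 were higher without overlap, against 23.5% of all genes. The 2 others fell by edgeR, against 2.03% of all genes. These were Nr2f1, by 0.61 (SE 0.12, adjusted p = 0.0461), and Nr2f2, by 0.57 (SE 0.11, adjusted p = 0.0464). Neither passed with the replicate block (adjusted p = 0.0641). Both are nuclear receptors that pattern opsins across the retina and are also made in other retinal cells. In APB5+Mino against IgG+Mino, 2 of the 14 rose, against 4.8% of all genes. Samd7, a photoreceptor repressor, rose by 0.88 (SE 0.14, adjusted p = 0.0148 by edgeR). Prdm1, which favours photoreceptor over bipolar fate, rose by 0.69 (SE 0.10, adjusted p = 0.0125).

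Other photoreceptor lists were read in the same way, and in APB5+Mino against IgG+Mino 8.09% of all genes passed in either direction. Of 14 further phototransduction genes shared by cones and rods, 2 fell in APB5+Mino against IgG+Mino, Rcvrn, the calcium sensor recoverin, by 0.54 (SE 0.076) and Pdc, the transducin-binding phosducin, by 0.50 (SE 0.088), with a median of -0.017 over the 14. Of 14 synapse and outer segment genes, Rom1 and Prph2, which shape the disc rim, fell by 0.47 and 0.38, and Kcnv2, a photoreceptor potassium channel subunit, rose by 0.56. Of 8 other cone-enriched genes, Tafa3 (0.43) and Ccdc136 (0.40) rose there and none fell. Of these 8, 6 were above 0, with a median of 0.10, while the members had a median of -0.30. Tafa3 also rose in APB5+Mino against APB5, by 0.58 (SE 0.10, adjusted p = 0.0461 by edgeR, and 0.0641 with the replicate block), against 2.79% of genes that rose. In that comparison 7 of the 8 cone-enriched genes were above 0 (median 0.44). So were 13 of the 14 synapse and outer segment genes (0.29) and 11 of the 14 shared phototransduction genes (0.42). The median was -0.057 over the members and -0.020 over all genes. In the other 2 comparisons no gene of these 3 lists passed, against 0% of all genes in APB5 against IgG and 0.0298% in IgG+Mino against IgG.

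Across the 12 libraries the members followed each other to different degrees, as a description that shares the 2 outlying libraries. The log2 CPM of Opn1sw and Opn1mw had a Pearson r of 0.971, and 0.888 without the third APB5 library. Gngt2 and Pde6h had 0.881, and 0.924 without it. Gnb3 was at -0.706 with Opn1sw, and at -0.0078 without that library. Outside the members, the genes most like Opn1sw were Aqp1 (0.991), Tmem138 (0.985), Adipor1 (0.980), Slc38a3 (0.978) and Klhl36 (0.976). Those most like Opn1mw were B230220B15Rik (0.984), Ankrd33 (0.983), Guca1b (0.981), Nim1k (0.980) and Rdh12 (0.980). Those most like the mean of the members were Ckmt1 (0.966), 3010001F23Rik (0.966), Pde6d (0.959), Otop3 (0.959) and Pdia5 (0.958). Over the 11 libraries without the third APB5 library, Aqp1, at 0.963 with Opn1sw, was the only 1 of these 15 still among the top 5 for its target.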

How the data were processed

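RNA was measured in 12 retinal libraries of 4 groups of 3. Total RNA was extracted with the RNeasy Micro kit, and strand-specific poly-A libraries were sequenced as single reads on an Illumina NextSeq. The authors converted the reads with bcl2fastq 2.20, per the submitters' processing notes, aligned them with the Illumina DRAGEN RNA pipeline (version not given in the sources used here) to mm39 with NCBI's annotation, and deposited raw counts per gene, which are the values used. The deposited tables of the authors' own comparisons hold fold changes and p-values, which were not used. The count table repeats 3 of its columns, and those repeats were not used.

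Counts were tested with edgeR 4.0.16 in R 4.3.3 (quasi-likelihood F-test, TMM, filterByExpr, prior count 2) on the 6 libraries of each comparison, and on all 12 for the interaction. The standard error is the size of the log2 fold change over the square root of F. P-values were adjusted by Benjamini-Hochberg over all genes tested. Calls required 0.05 or less after adjustment together with a 2-fold change (1 on the log2 scale), and a second rule dropped the fold. The opsin ratio, with 0.5 counts added to each gene, was tested by exact permutation. Positions and lengths came from GENCODE M39 on GRCm39. DESeq2 1.42.0, other scalings, no filter, a replicate block, Xist as a covariate and leaving out each library were the alternatives, and leaving out both outlying libraries and the use of coding length were chosen after seeing the data. The scripts were tested on simulated data.

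Same-numbered APB5+Mino and APB5 libraries deviated weakly together from their group means (r of 0.134 to 0.182 for the 3 pairs, -0.157 to 0.019 for the 6 others). Deviations from a mean of 3 libraries are tied to each other, so these values are not independent. The third library also had high Xist in both groups. Whether the numbers pair the samples is therefore not known, and the labels do not say what a number marks. The block called no gene at any fold in that comparison. Replicates differed by more than sampling noise (chi-square per gene of 12.5 to 344), which by itself does not show that they are independent. Each was counted as a sample because the libraries of a group came from 3 mice. Depth was similar in all libraries, and 3 counts, the least read as detected, came to under 0.1 CPM.

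Named genes were the 10 members, their rod counterparts, Pdgfrb and Xist, 9 regulators, list genes past the call rule, and the 5 genes most like Opn1sw, Opn1mw and the members' mean. Other list genes that passed at any fold, the genes on the opposite strand, Samd7 and Prdm1 were named after their values were seen. Members and lists were chosen with earlier results of these data known. A further rod gene, with the pairs that used it, is not reported here, which leaves 8 cone and rod pairs.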

Additional observations from a re-analysis of the deposited data

How the results depend on the processing

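No cone gene was called at a 2-fold change in any of the 4 comparisons under any alternative. The interaction called 1, Gnb3 (-1.16, adjusted p = 0.0442 by edgeR), with Xist as a covariate, where 4.39% of all genes were called. The count with an adjusted p of at most 0.05 at any fold moved more. In APB5 against IgG it was 0, and 1 with Xist as a covariate (Gnb3, with 6.05% of genes higher). In APB5+Mino against APB5 it was 0, but 2 with DESeq2 (12.4% of genes lower), with all 12 libraries (12% lower) and with Xist as a covariate (14.1% lower). It was 0 to 6 when 1 library was left out, where Gnat2, at 0.0069, ranged from -0.28 to 0.22. Gnat2 passed at -0.28 without the third APB5 library. In APB5+Mino against IgG+Mino it was 2 (3.28% of genes lower), but 1 with library size only (2.22% lower) and 5 with DESeq2 (9.25% lower). It was 0 with all 12 libraries and with Xist as a covariate, and 0 to 4 when 1 library was left out. In the interaction it was 0, but 1 with Xist as a covariate (3.92% of genes lower) and 2 without both outlying libraries (2.09% lower).

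The median over the members was -0.46 in APB5 against IgG (-0.63 to -0.14 when 1 library was left out, 0.096 without both outlying libraries, -0.86 with Xist as a covariate), -0.057 in APB5+Mino against APB5 (-0.29 to 0.11, the lowest without the third APB5 library, and 0.062 with Xist as a covariate), -0.14 in IgG+Mino against IgG (-0.22 to 0.088, and -0.73 with Xist as a covariate) and -0.30 in APB5+Mino against IgG+Mino (-0.32 to -0.25, and -0.16 with Xist as a covariate). The median interaction was -0.11 (-0.28 to 0.13 when 1 library was left out, the lowest without the third APB5 library), -0.42 without both outlying libraries and 0.62 with Xist as a covariate. The median log2 ratio of cone genes to their rod counterparts kept its direction without Gnb3 and Gnb1 in all 4 comparisons, and turned to -0.057 in APB5 against IgG without the third APB5 library.

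With the replicate number as a block, no member had an adjusted p of at most 0.05 in APB5+Mino against APB5 (Gngt2 0.0641, Gnb3 0.0713, by edgeR, with a median of -0.0023). Same-numbered libraries deviated weakly together there. In APB5+Mino against IgG+Mino, where the correlations of same-numbered libraries were -0.024 to 0.200, the block gave 5 members, with 9.75% of genes lower. In both comparisons the libraries are known to share only a number. In the other comparisons it changed no call of a cone gene. In APB5+Mino against APB5 it called no gene at any fold, so the 8 other genes named as passing there lost their calls (adjusted p of 0.0641 to 0.0676), as they did with library size only (0.0502 to 0.0546) and without the first APB5 or any APB5+Mino library (0.105 to 0.214). Of the 15 other genes named in APB5+Mino against IgG+Mino all passed with the block and none with all 12 libraries or with Xist as a covariate, where Gnb1 turned to 0.019 and Prph2 to 0.032. Xist as a covariate could be fitted only over all 12 libraries, and its cause of change was not tested; nor was that of the other settings.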
